A study of Mus musculus with 20 samples.

Results

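The nuclear genes of respiratory complexes II to V were followed in whole testis of mice exposed to benzo[a]pyrene (B[a]P), a polycyclic hydrocarbon whose metabolites form bulky DNA adducts. The members were all genes on the array whose annotated symbol started with Sdha to Sdhd, Uqcr, Cox and a digit, or Atp5. They came to 59 of the 16966 named genes, on 60 of 20868 probes. By role they were 4 subunits of complex II, 4 of its assembly factors, 8 subunits of complex III, 16 subunits of complex IV, 9 of its assembly factors, the supercomplex factor Cox7a2l and 17 subunits of complex V. Where a gene had several probes, which was the case for Cox17 alone, the brightest stood for it.

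The 4 groups of 5 male mice each were Xpc-/- mice given B[a]P, Xpc-/- controls, Wt mice given B[a]P and Wt controls. The dose of B[a]P, given once by oral gavage, was 13 mg/kg bw, controls received sunflower oil alone, and all testes were taken 4 days later. All mice had the C57BL/6 background. Xpc-/- mice lack Xpc in the whole body, not in a chosen cell type. Xpc is the protein that senses bulky lesions for global genome nucleotide excision repair. The ages of the mice were not given in the sources used here.

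The respiratory chain passes electrons from NADH and succinate to oxygen and uses the energy to pump protons across the inner mitochondrial membrane, and complex V, the ATP synthase, uses the proton gradient to make ATP. Complex II (succinate dehydrogenase) feeds electrons from the citric acid cycle, complex III passes them to cytochrome c, and complex IV (cytochrome c oxidase) hands them to oxygen. In the testis, spermatocytes and spermatids rely on oxidative metabolism more than spermatogonia do, and germ cells use isoforms of a few complex IV subunits that somatic cells lack.

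All values below are log2 signals of single probes, which cannot be compared between genes. Array medians lay between 7.54 and 7.56, arrays of one group correlated at 0.964 to 0.994, and the number of arrays limited the precision. Most members were bright: 49 of 59 lay in the brightest 25% of probes, at an average of 8.9 or above, while Cox18 lay in the dimmest 25%. The Xpc probe gave 6.3 to 6.84 in exposed and 6.26 to 6.99 in control Xpc-/- testes, against 7.13 to 7.62 in exposed and 7.1 to 7.64 in control Wt testes. The genotypes did not overlap (log2 difference -0.70, limma adjusted p = 0.000298), but the sources used here do not say whether the probe lies in the deleted part of the gene. Arrays 1 and 2 of the Xpc-/- controls stood apart from the other 18 on the first principal component of all probes. They lay at 38.4 and 40.5, against -18.7 to 8.1. Counts of members called by the adjusted test are given with and without these arrays. Counts at an unadjusted p, of overlap and of estimates above 0 are given with all 20 arrays only, as are the calls of genes with promoter motifs.

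The first comparison asked which members differed after B[a]P, with the effects in both genotypes averaged into one B[a]P main effect. Exposure raised 4 members and lowered 3, each by less than 1.5-fold. The higher genes were Atp5l, Atp5j2 and Atp5b of the ATP synthase and the copper chaperone Cox17. The lower genes were Cox6a1 of complex IV, Sdhd of complex II and Atp5h of the ATP synthase. The other 52 members did not pass the test (limma, Benjamini-Hochberg adjusted over all probes, adjusted p under 0.05).

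These 7 calls were 11.9% of the members, against 5.68% of all probes and 16.1% of the probes in the brightest 25%. Among the 49 members there the share was 14.3%. Of all probes, 3.57% were called higher and 2.12% lower. At an unadjusted p under 0.05 there were 17 of the 59 members, against 18.5% of all probes. The median main effect of the members was -0.011, against -0.005 over all probes, and the members ran from -0.37 to 0.52. In whole testis, fewer cells of a type and less RNA per cell cannot be told apart.

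**Figure D1:**
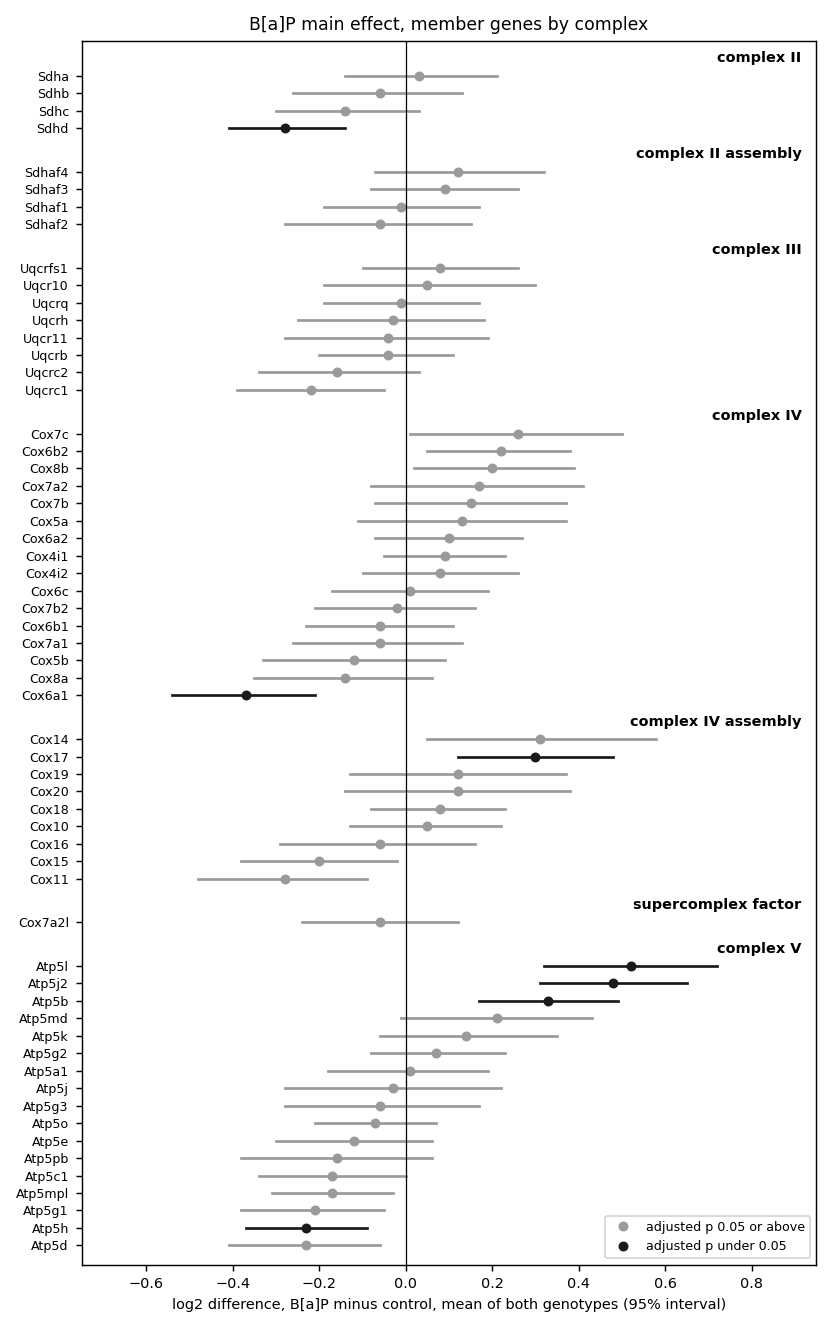
B[a]P main effect of each of the 59 member genes, by complex. The x axis is the log2 difference, B[a]P minus control, averaged over both genotypes, points are estimates and lines 95% intervals (limma, 20 arrays), and black marks an adjusted p under 0.05. The effects run from -0.37 (Cox6a1) to 0.52 (Atp5l), and complex V holds both directions.

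Complex V carried 4 of the 7 calls, or 23.5% of its 17 subunits, against 16.1% of all probes with an average of 8.9 or above. Atp5l encodes subunit g, a small membrane subunit at the interface where ATP synthase dimers meet. Its values were 13.48, 13.48, 13.54, 13.33 and 13.17 in Xpc-/- B[a]P mice and 12.49, 12.61, 13.17, 13.01 and 13.21 in Xpc-/- controls. In Wt mice given B[a]P they were 13.42, 13.48, 13.8, 13.04 and 13.41, against 12.97, 12.82, 13.11, 12.81 and 12.78 in Wt controls. All 10 exposed testes lay above the mean of their own controls, and the ranges overlapped in both genotypes, since 1 exposed mouse in each lay within its controls. The main effect was 0.52 ± 0.10 (SE), or 1.43-fold, with an adjusted p of 0.00134 (limma). Without Xpc-/- controls 1 and 2, the dimmest pair of its group, it was 0.40 with an adjusted p of 0.00206. The gene table names 3 pseudogenes after Atp5l and a second transcript, Gm30934, that overlaps it, and whether the probe also binds their RNA was not tested.

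Atp5j2 encodes subunit f, which sits in the same membrane part. Xpc-/- B[a]P mice had 12.87, 12.99, 12.91, 13.2 and 12.61, and Xpc-/- controls 12.2, 12.5, 12.5, 12.46 and 12.51. Wt B[a]P mice had 12.9, 12.82, 13.3, 12.7 and 13.0, and Wt controls 12.61, 12.43, 12.57, 12.4 and 12.28. Every exposed testis exceeded every control of its genotype. This gave a main effect of 0.48 ± 0.08 (SE), 1.40-fold, with an adjusted p of 0.000612 (limma). It was the one member also called within each genotype, at 0.48 in Xpc-/- mice (adjusted p = 0.0484) and 0.48 in Wt mice (adjusted p = 0.0447). These within-genotype calls lay close to the threshold and were lost in 15 of the 20 fits without 1 mouse for the Xpc-/- effect, and in 11 of 20 for the Wt effect.

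Atp5b encodes the beta subunit, which holds the catalytic sites of the F1 head. Its signal was 11.36, 11.66, 11.55, 11.69 and 11.44 in Xpc-/- B[a]P mice and 11.04, 11.45, 11.08, 11.18 and 10.84 in Xpc-/- controls. Wt B[a]P mice gave 11.42, 11.13, 11.26, 11.4 and 11.57, and Wt controls 11.12, 11.02, 11.23, 11.05 and 11.16. All 10 exposed testes were above their control mean, although both pairs of groups overlapped, in Xpc-/- mice through control 2 at 11.45. The main effect was 0.33 ± 0.08 (SE), with an adjusted p of 0.00964 (limma).

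Atp5h, in contrast, was lower. It encodes subunit d of the peripheral stalk, which holds the F1 head in place. Xpc-/- B[a]P mice had 12.74, 12.69, 12.78, 12.88 and 13.03, against 12.97, 13.02, 13.11, 13.06 and 13.22 in Xpc-/- controls. Wt B[a]P mice had 12.88, 12.92, 12.88, 13.15 and 13.07, against 13.22, 13.17, 13.17, 13.29 and 13.11 in Wt controls. All 10 exposed testes lay below their control mean, with an overlap of 1 exposed mouse in each genotype. The main effect was -0.23 ± 0.07 (SE), with an adjusted p of 0.0398 (limma). The call was lost in 14 of the 20 fits that left out 1 mouse, where the adjusted p reached 0.0855.

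All 17 subunits of complex V had an average of 8.9 or above, where 16.1% of probes were called in either direction. Grouped by place in the enzyme, the subunits gave the following counts. Of the 5 small membrane subunits (Atp5j2, Atp5k, Atp5l, Atp5md, Atp5mpl), 2 were called higher, and the median main effect of the 5 was 0.208. The share of all probes called higher, dim probes included, was 3.57%. Of the 5 subunits of the F1 head and central stalk, Atp5b alone was called, and the median was -0.118. All 4 peripheral stalk subunits had estimates below 0, with a median of -0.118, and Atp5h alone was called. None of the 3 genes for the c ring, the proton-driven rotor, was called, and their median was -0.057. Over the complex the median was -0.057, and 7 of the 17 estimates were above 0. Atp5d, the delta subunit of the central stalk, had an estimate of -0.23 (adjusted p = 0.112, limma), level with that of Atp5h. Without Xpc-/- controls 1 and 2 the medians were 0.09 for the small membrane subunits, -0.09 for the head and central stalk, -0.23 for the peripheral stalk and -0.19 for the c ring. The 3 small membrane subunits that were not called then had 0.09 (Atp5k), 0.05 (Atp5md) and -0.18 (Atp5mpl).

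Complex II was represented by all 4 of its subunits, of which Sdhd alone was called. Of all probes 5.68% were called, and of probes with an average of 8.9 or above 16.1%. Sdhd is one of the 2 membrane anchors. It read 10.56, 10.64, 10.74, 10.6 and 10.68 in Xpc-/- B[a]P mice and 10.83, 10.77, 10.84, 10.94 and 10.81 in Xpc-/- controls. The Wt values were 10.89, 10.46, 10.63, 10.57 and 10.76 with B[a]P, and 10.96, 10.96, 11.13, 10.99 and 11.06 without. No exposed testis reached the lowest control of its genotype. Sdhd had a main effect of -0.28 ± 0.07 (SE), 0.826 times the control level, with an adjusted p of 0.0121 (limma), and the lowest residual SD of all members (0.10).

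No call was made for the other three subunits of complex II. Sdhc, the second anchor, averaged 9.41 ± 0.22 in Xpc-/- B[a]P mice and 9.68 ± 0.17 in Xpc-/- controls (SD, n = 5 each), and 9.59 in both Wt groups, with SDs of 0.13 with B[a]P and 0.16 without. Its main effect was -0.14 (95% interval -0.30 to 0.03). The iron-sulfur subunit Sdhb had -0.06 (-0.26 to 0.13), which was -0.13 without Xpc-/- control 1 and -0.19 without Xpc-/- controls 1 and 2, and the flavoprotein subunit Sdha, which oxidizes succinate, had 0.03 (-0.14 to 0.21), or 0.11 without both arrays. The 4 assembly factors Sdhaf1 to Sdhaf4 lay between -0.06 and 0.12, or -0.20 and 0.15 without both arrays, and none was called.

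In complex IV, 1 of 16 subunits was called, or 6.25%. The shares were 5.68% of all probes and 16.1% of probes with an average of 8.9 or above. Cox4i2, Cox6a2, Cox6b1, Cox7a1 and Cox8b were dimmer than that. Cox6a1 encodes the form of subunit VIa found in most tissues. Values in Xpc-/- B[a]P mice were 14.34, 14.04, 14.5, 14.27 and 14.62, and in Xpc-/- controls 14.85, 14.65, 14.52, 14.66 and 14.81. Values in Wt B[a]P mice were 14.43, 14.33, 14.4, 14.06 and 14.52, and in Wt controls 14.76, 14.69, 14.95, 14.72 and 14.62. The Wt groups did not overlap, and in Xpc-/- mice 1 exposed testis (14.62) lay above the lowest control. The main effect was -0.37 ± 0.08 (SE), 0.772 times the control level, the largest fall among the members, with an adjusted p of 0.00443 (limma).

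The other 15 subunits of complex IV were not called, and 10 of the 16 had estimates above 0, with a median of 0.086 for the complex, or 0.02 without Xpc-/- controls 1 and 2. Cox7c, a small subunit present in all tissues, had the highest estimate at 0.26 (95% interval 0.01 to 0.50; adjusted p = 0.243, limma). Without the same arrays that estimate was 0.11. Isoforms known from heart and skeletal muscle were on the array too, and Cox6a2, Cox7a1 and Cox8b had 0.10, -0.06 and 0.20, none of them called.

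Among the 9 assembly factors of complex IV, 1 was called (11.1%), against 5.68% of all probes and 16.1% of those at 8.9 or above. This was Cox17. It brings copper to the sites where complex IV takes it up. Its brighter probe read 12.28, 12.17, 12.37, 12.42 and 11.94 in Xpc-/- B[a]P mice and 11.58, 11.63, 12.16, 12.04 and 12.04 in Xpc-/- controls. In Wt mice the values were 12.17, 12.2, 12.63, 12.1 and 12.35 with B[a]P, and 12.04, 12.11, 12.13, 11.87 and 12.04 without. The ranges overlapped in both genotypes, and the lowest pair was Xpc-/- controls 1 and 2. Its main effect was 0.30 ± 0.09 (SE), with an adjusted p of 0.0364 (limma). It was 0.21 without those arrays, with an adjusted p of 0.101.

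The second Cox17 probe did not follow the first. Its averages were 11.56 ± 0.33 in Xpc-/- B[a]P mice and 11.81 ± 0.23 in Xpc-/- controls, and 11.64 ± 0.27 in Wt B[a]P mice and 11.50 ± 0.22 in Wt controls (SD, n = 5 each). Its main effect was -0.06 (adjusted p = 0.836, limma), and the mean of both probes gave 0.12 (adjusted p = 0.345). The rise of Cox17 therefore held for 1 of its 2 probes. Cox11, which inserts copper into complex IV, and Cox15, which makes heme A, had estimates of -0.28 and -0.20, and Cox14, an early assembly factor, had 0.31, or 0.16 without Xpc-/- controls 1 and 2. None of these passed the test.

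**Figure D2:**
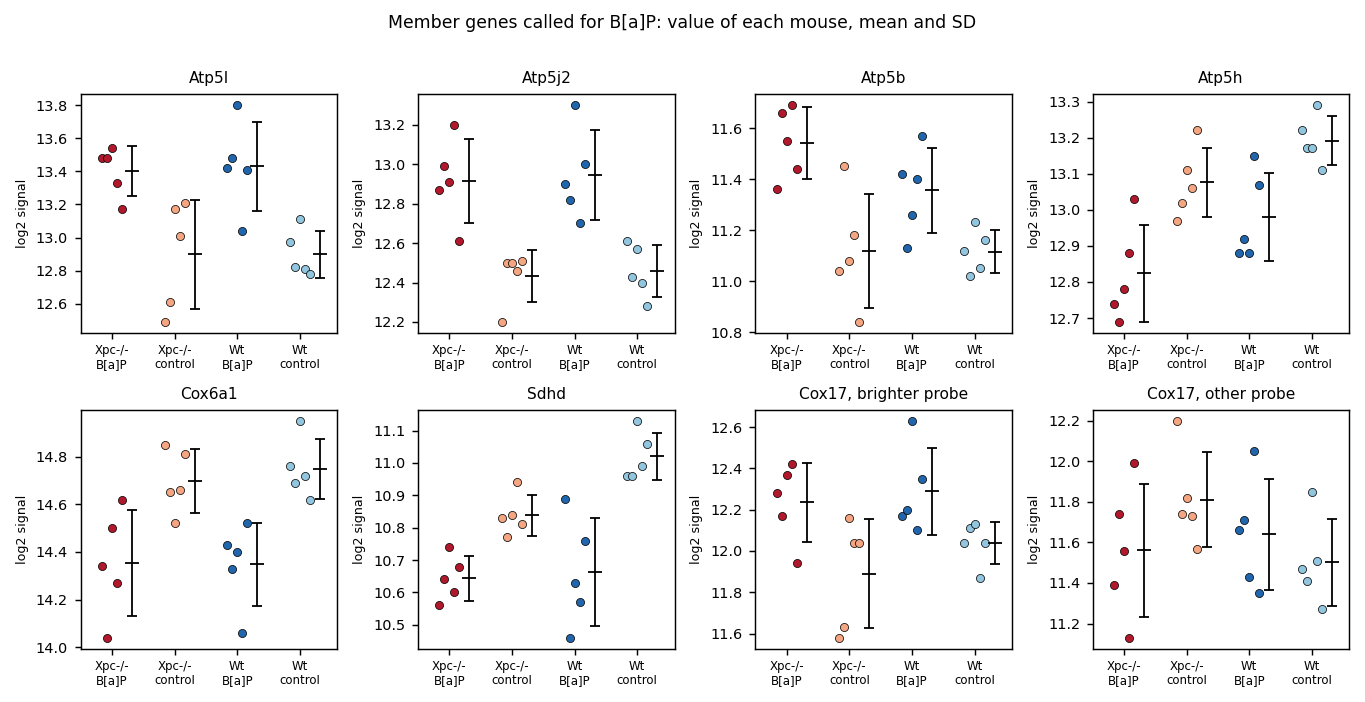
Signal of the 7 called members and of the second Cox17 probe in each of 20 mice. The y axes are log2 signal and differ between panels, points are mice, and bars show the mean and SD of 5 mice. Atp5j2 and Sdhd are free of overlap between exposed and control mice in both genotypes, and the second Cox17 probe shows no common direction.

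Complex III had no called member among 8, against 5.68% of all probes and 16.1% of probes with an average of 8.9 or above. Whether the complexes differed in their share of calls was not tested. The largest fall was that of Uqcrc1, a core subunit, at -0.22 (adjusted p = 0.116, limma), and the largest rise that of Uqcrfs1, the Rieske iron-sulfur protein, at 0.08 (adjusted p = 0.70). Uqcrc1 averaged 11.81 ± 0.16 in Xpc-/- B[a]P mice and 12.05 ± 0.26 in Xpc-/- controls, and 11.98 ± 0.16 in Wt B[a]P mice and 12.19 ± 0.10 in Wt controls (SD, n = 5 each). Xpc-/- control 2 was the lowest control, at 11.62. Uqcrfs1 averaged 12.19 ± 0.19, 12.18 ± 0.26, 12.19 ± 0.22 and 12.05 ± 0.05 in the same order of groups. The supercomplex factor Cox7a2l, which helps complexes III and IV to associate, had an estimate of -0.06.

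Promoter sequence was compared between members that moved in opposite directions. Windows of the 250 bases before the transcription start were taken from RefSeq (GRCm38.p6), where 47 of the 59 members had an entry and Cox17 had none. Nuclear respiratory factor 1 (NRF1) and the ETS family factor GABP are known regulators of many respiratory genes, so the NRF1 motif (GCGCA, any base, then GCGC) and the ETS motif CCGGAAG were searched on both strands. The windows shown are those of the 3 members called lower and of the 2 with the largest rises, 5′ to 3′ on the gene's strand, with matches to either motif in capitals (an ETS match on the other strand reads CTTCCGG).
Sdhd, chr9:50603850-50604099, minus strand: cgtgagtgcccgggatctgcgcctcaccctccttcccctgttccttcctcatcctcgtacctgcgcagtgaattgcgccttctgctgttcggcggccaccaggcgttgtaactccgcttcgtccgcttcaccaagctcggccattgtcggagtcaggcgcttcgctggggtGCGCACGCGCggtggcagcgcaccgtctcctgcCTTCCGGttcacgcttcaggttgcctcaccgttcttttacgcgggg
Cox6a1, chr5:115348959-115349208, minus strand: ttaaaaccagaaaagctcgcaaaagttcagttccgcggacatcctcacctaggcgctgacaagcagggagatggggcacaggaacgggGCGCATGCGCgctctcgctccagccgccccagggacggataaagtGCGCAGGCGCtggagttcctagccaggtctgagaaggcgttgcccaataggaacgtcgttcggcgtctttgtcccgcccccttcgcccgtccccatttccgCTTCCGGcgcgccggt
Atp5h, chr11:115419920-115420169, minus strand: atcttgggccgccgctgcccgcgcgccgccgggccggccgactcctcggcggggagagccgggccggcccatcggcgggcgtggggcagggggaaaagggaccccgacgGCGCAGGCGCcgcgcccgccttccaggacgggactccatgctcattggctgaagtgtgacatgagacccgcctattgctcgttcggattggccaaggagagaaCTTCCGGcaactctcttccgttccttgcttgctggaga
Atp5l, chr9:44920743-44920992, minus strand: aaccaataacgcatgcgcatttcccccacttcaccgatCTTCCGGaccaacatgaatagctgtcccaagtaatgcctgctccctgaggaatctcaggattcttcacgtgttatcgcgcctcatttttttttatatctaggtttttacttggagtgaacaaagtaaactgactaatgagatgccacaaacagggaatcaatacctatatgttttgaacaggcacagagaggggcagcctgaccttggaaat
Atp5j2, chr5:145191542-145191791, minus strand: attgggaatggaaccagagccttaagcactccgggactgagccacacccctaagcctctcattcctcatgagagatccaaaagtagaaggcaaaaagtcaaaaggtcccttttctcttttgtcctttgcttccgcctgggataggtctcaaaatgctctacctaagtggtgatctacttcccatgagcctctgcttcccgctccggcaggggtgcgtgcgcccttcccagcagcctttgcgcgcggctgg
The Sdhd window held 1 match to NRF1 and 1 to ETS, that of Cox6a1 held 2 and 1, and that of Atp5h held 1 and 1. The Atp5l window held 1 ETS match, and that of Atp5j2 held neither motif, as did that of Atp5b.

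Both motifs stood in 1 window in 3 of the 47 members, 6.38%, against 0.644% of 27025 genes with an entry. Those 3 members were Sdhd, Cox6a1 and Atp5h, the members called lower with all arrays. Uqcrc1, Atp5pb, Atp5g1, Atp5d and Cox11 were also called lower without Xpc-/- controls 1 and 2, and their windows held neither motif. The NRF1 motif was counted in 14.9% of members against 4.23% of all genes, and the ETS motif in 29.8% against 7.83%. All genes were not matched to the members for signal, and most members were bright. Of 3914 measured genes with an entry in the brightest 25% of probes, 431 held the NRF1 motif, 663 the ETS motif and 64 both. YY1 is another factor with sites in respiratory gene promoters, and its motif AAGATGGC was found in 4.26% of members against 1.83%. Sdha held 3 NRF1 matches with a main effect of 0.03, and Atp5c1, Atp5g2 and Atp5k held 1 each with -0.17, 0.07 and 0.14. Outside the members, of 141 measured genes that held both motifs, 13 were called higher (9.22%) and 7 lower (4.96%), with a median main effect of -0.01. For all 13401 measured non-members with an entry the shares were 4.28% higher and 2.38% lower. Among non-members in the brightest 25% of probes, 16.4% of the 61 genes with both motifs were called higher and 4.92% lower, against 10.9% and 5.39% of all 3874. A match is a description of the letters in the window. The search was made after the directions of the members were known.

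Germ cell isoforms were compared with their somatic partners. Cox6b2 and Cox7b2 are the testis forms of subunits VIb and VIIb of complex IV, and Cox6b1 and Cox7b are the forms of other tissues. Cox8c, the testis form of subunit VIII, was not annotated in the probe table used here, and its partner Cox8a had a main effect of -0.14 (95% interval -0.35 to 0.06), or -0.22 without Xpc-/- controls 1 and 2. None of the isoforms was called for B[a]P.

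Cox6b2 read 11.42, 11.46, 11.51, 11.52 and 11.89 in Xpc-/- B[a]P mice and 11.17, 11.2, 11.66, 11.36 and 11.43 in Xpc-/- controls. It read 11.56, 11.45, 11.78, 11.71 and 11.44 in Wt B[a]P mice and 11.5, 11.46, 11.28, 11.11 and 11.39 in Wt controls. The groups overlapped in both genotypes, although all 10 exposed testes were above their control mean. The main effect was 0.22 (95% interval 0.05 to 0.38; adjusted p = 0.124, limma). Cox6b1 averaged 7.87 ± 0.24 in Xpc-/- B[a]P mice and 7.87 ± 0.16 in Xpc-/- controls, and 7.85 ± 0.13 in Wt B[a]P mice and 7.98 ± 0.15 in Wt controls (SD, n = 5 each), a main effect of -0.06. Its probe was far dimmer than that of Cox6b2, at 7.5 to 8.14, near the array medians of 7.54 to 7.56. Whether the weaker signal affected the comparison of the 2 genes was not tested.

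The response of Cox6b2 exceeded that of Cox6b1 by 0.28 (95% interval 0.04 to 0.52), 0.19 in Xpc-/- and 0.37 in Wt mice. A two-sided exact permutation test over the 63504 assignments of exposure within genotypes gave p = 0.0228, and 0.0455 when adjusted over the 2 pairs compared. This difference rested on single mice: 12 of the 20 analyses that left out 1 mouse gave an adjusted exact p above 0.05, and without Xpc-/- controls 1 and 2 the difference was 0.25 (adjusted exact p = 0.116). For the second pair, the response of Cox7b2 minus that of Cox7b was -0.18 (95% interval -0.54 to 0.19; exact permutation p = 0.311). That difference ran from -0.26 (without Wt control 3) to -0.09 (without Xpc-/- control 1) when 1 mouse was left out, and was -0.02 without Xpc-/- controls 1 and 2. Cox7b2 itself had a main effect of -0.02 and Cox7b one of 0.15, or 0.02 and 0.04 without both arrays.

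**Figure D3:**
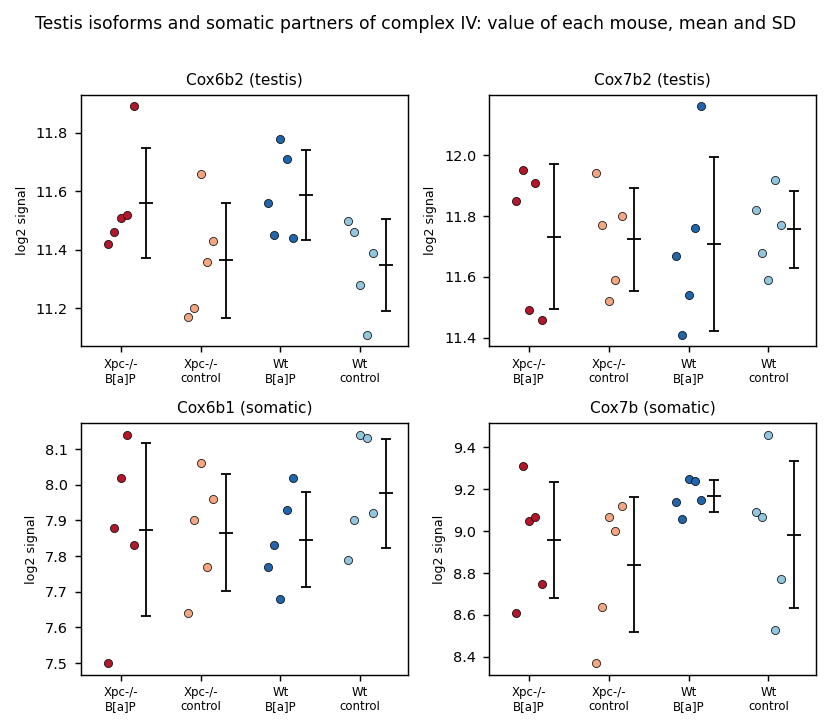
Testis isoforms Cox6b2 and Cox7b2 (top) and somatic partners Cox6b1 and Cox7b (bottom) in each of 20 mice. The y axes are log2 signal and differ between panels, points are mice, and bars show the mean and SD of 5 mice. Exposed and control mice overlap in every panel.

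Whether the response depended on Xpc was asked next. Within Xpc-/- mice 1 member was called (Atp5j2, 1.69% of members against 0.647% of all probes), and within Wt mice the same gene (1.69% against 0.695%). At an unadjusted p under 0.05 there were 10 of 59 members in Xpc-/- mice, against 14.3% of all probes, and 12 of 59 in Wt mice, against 10.7%. Atp5j2 and Sdhd were free of overlap in both genotypes in the same direction, 3.39% of members against 0.695% of all probes and 2.49% of the brightest 25%. The median effect was 0.014 in Xpc-/- and -0.023 in Wt mice, against -0.01 and 0 over all probes. Without Xpc-/- controls 1 and 2 the medians of the members were -0.06 in Xpc-/- and -0.02 in Wt mice.

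The difference between the responses was tested itself and passed for none of the 59 members, as for 0% of all probes (limma, lowest adjusted p = 0.999). At an unadjusted p under 0.05 the count was 0 members, against 3.11% of all probes, and an ordinary two-way analysis of variance also gave 0 after adjustment. The 95% interval of a member's difference reached 0.28 to 0.53 to either side of its estimate. These intervals were not adjusted over all probes, so the adjusted test could also have missed differences between genotypes larger than that. Atp5j2 had an estimate of 0.00 (-0.34 to 0.34), Atp5l one of -0.03 (-0.42 to 0.37) and Sdhd one of 0.16 (-0.11 to 0.44). The largest difference was that of Atp5g3, a c ring gene, at 0.37, with effects of 0.13 in Xpc-/- and -0.24 in Wt mice. Without Xpc-/- controls 1 and 2 that difference was 0.11 and the effect in Xpc-/- mice -0.13, while the difference for Atp5l was -0.26. The effect of Atp5l was then 0.27 in Xpc-/- and 0.53 in Wt mice.

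**Figure D4:**
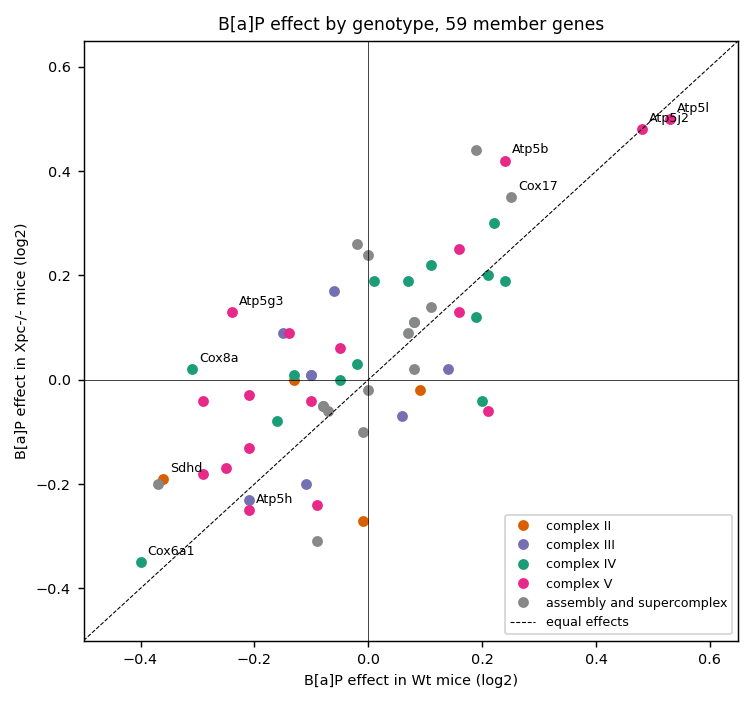
B[a]P effect in Xpc-/- mice (y axis) against that in Wt mice (x axis), both as log2 differences, for the 59 member genes coloured by complex. The dashed line marks equal effects. Atp5l and Atp5j2 lie far from 0 in both genotypes (0.50 and 0.48 in Xpc-/-, 0.53 and 0.48 in Wt mice), and Cox6a1 lies at -0.35 and -0.40. Without Xpc-/- controls 1 and 2, not shown here, the effect in Xpc-/- mice was 0.27 for Atp5l and 0.42 for Atp5j2.

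Loss of Xpc alone changed no member past the test. In exposed mice the genotype effect was called for 0 of 59 members, against 0.00479% of all probes, and 0 members had an unadjusted p under 0.05, against 4.33%. In control mice it was called for 0 members, against 0% of all probes, with 1 of 59 at an unadjusted p under 0.05, against 4.44% (limma, lowest adjusted p = 0.894). With both averaged it was again 0 members, against 0.0192% of all probes, with 6 of 59 at an unadjusted p under 0.05, against 6.55%. An ordinary analysis of variance also gave 0 members for each of these contrasts. Sdhd and Atp5a1, the alpha subunit of the F1 head, were lower in all Xpc-/- controls than in any Wt control, at -0.18 and -0.25 (-0.16 and -0.12 without Xpc-/- controls 1 and 2), 3.39% of members against 0.738% of all probes that did not overlap. They were named here because of that separation, and neither passed the test (adjusted p = 0.894 for both, limma).

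Averaged over all 59 members, the spread within a group was largest in the Xpc-/- controls, where arrays 1 and 2 stood apart. The SD there was 0.13, against 0.03 to 0.06 in the other groups. Set against the mean of the Wt controls, these arrays read -0.18 and -0.23, whereas the other 18 mice lay between -0.07 and 0.08. For complex V they read -0.23 and -0.29, against 0.05, 0.01 and 0.05 in the other Xpc-/- controls. Complex III gave -0.12 and -0.16, and complex IV -0.14 and -0.22. The complex II average did not stand out, at -0.14 and -0.05 against -0.08, -0.09 and -0.05, but its subunits moved in opposite directions. Sdhb read 10.66 and 10.91 in these arrays, against 11.25 to 11.58 in the other Xpc-/- controls. Sdha read 8.54 and 8.69 against 8.21 to 8.3, and Sdhc 9.84 and 9.85 against 9.45 to 9.64. Sdhd read 10.83 and 10.77 against 10.81 to 10.94.

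**Figure D5:**
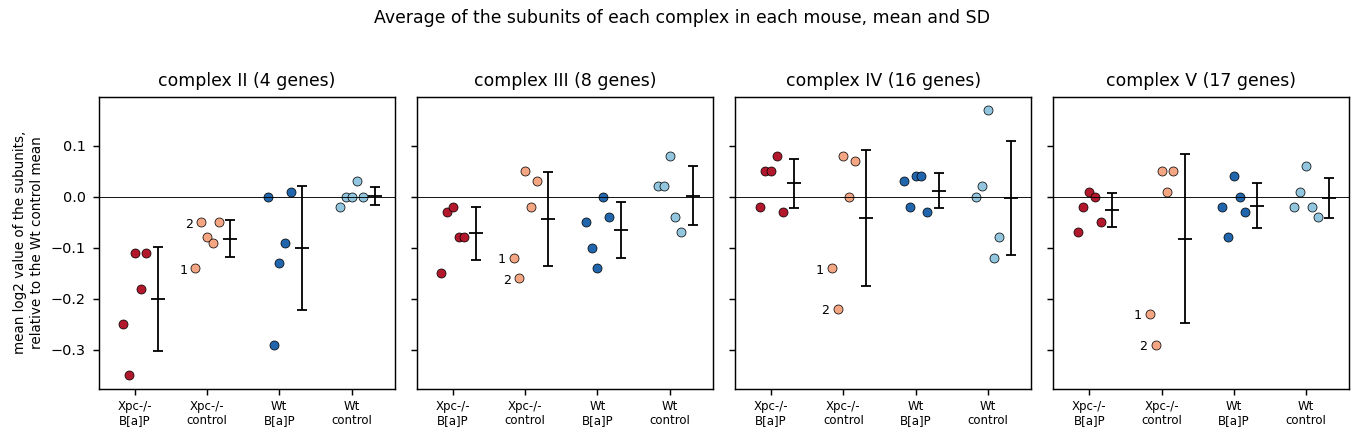
Average log2 value of the subunits of each complex in each of 20 mice, relative to the mean of the Wt controls. Points are mice, bars show the mean and SD of 5 mice, and Xpc-/- controls 1 and 2 are numbered. These arrays read -0.23 and -0.29 in complex V.

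Without those arrays more members were called lower. The count was then 3 higher and 8 lower, 18.6% of members against 11.5% of all probes. Over all probes 5.63% were then called higher and 5.88% lower. Among the brightest 25% of probes it was 22.4% of members against 28.9% of probes. Cox17 dropped out of the rises. Besides Sdhd, Cox6a1 and Atp5h, the falls then included Uqcrc1 (-0.31, adjusted p = 0.00718, limma), Atp5pb of the peripheral stalk (-0.32, adjusted p = 0.00737), the c ring gene Atp5g1 (-0.27, adjusted p = 0.0212), Atp5d (-0.28, adjusted p = 0.0335) and Cox11 (-0.29, adjusted p = 0.0341). The rises were Atp5j2 (0.45), Atp5l (0.40) and Atp5b (0.37). The median of the members was then -0.04.

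Proteins that work beside the complexes were counted from whole lists. Of 10 electron carriers and inner or outer membrane translocators, 5 were called higher and 0 lower, with a median of 0.284. Of all probes, 3.57% were called higher and 2.12% lower, and 16.1% of the brightest 25% were called in either direction. Among the 3914 measured genes with a promoter entry in that 25%, 10.8% were called higher and 5.42% lower. Without Xpc-/- controls 1 and 2 the 10 genes gave 3 higher (Cyc1, Cycs, Slc25a3) and 2 lower (Cyct, Vdac2), with a median of 0.19. Slc25a3, which imports the phosphate for ATP synthesis, had 0.44 ± 0.08 (SE; adjusted p = 0.000821, limma), and somatic cytochrome c, Cycs, had 0.37 ± 0.09 (adjusted p = 0.0142). The testis cytochrome c, Cyct, had -0.10 ± 0.11 (adjusted p = 0.695). Cyc1 is cytochrome c1, a complex III subunit that the symbol rule does not take in, and it had 0.28 ± 0.08 (adjusted p = 0.0415). The channels Vdac1 and Vdac3 of the outer membrane had 0.43 and 0.27.

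Of 18 measured assembly factors outside the members, 3 were called higher (Surf1 0.37, Uqcc3 0.39, Hccs 0.26) and 2 lower (Lrpprc -0.36, Coa5 -0.35), against the same shares, and without both arrays 5 higher and 2 lower. Surf1 helps to assemble complex IV, Uqcc3 helps to assemble complex III, Hccs attaches heme to cytochrome c and c1, and Lrpprc stabilizes mitochondrial mRNA. None of 8 regulators of respiratory genes, Nrf1 and Gabpa among them, was called, and without both arrays 1 was called lower (Gabpb1). Of 41 genes with Nduf symbols, the subunits and assembly factors of complex I, 0 were called higher and 4 lower, 9.76%, with a median of -0.001, and without both arrays 3 higher and 6 lower.

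Marker lists of testis cell types were read beside these results. Of 8 spermatocyte markers 1 was called higher, of 8 round spermatid markers 2 were called lower, and none was called among 6 measured spermatogonial, 8 elongating spermatid, 8 Sertoli, 6 measured Leydig and 4 macrophage markers, against 3.57% of all probes called higher and 2.12% lower. When both arrays were left out, 1 Sertoli marker was called lower (Wt1) and 1 Leydig marker higher (Cyp17a1), and the counts of the other marker lists did not change. The 2 round spermatid markers called were then Spaca1 and Tssk2, in place of Crem and Tssk2. The round spermatid average ran from -0.19 to 0.03 in Xpc-/- B[a]P mice and -0.16 to 0.10 in Xpc-/- controls, and from -0.18 to 0.00 in Wt B[a]P mice and -0.09 to 0.06 in Wt controls. The spermatocyte average ran from -0.02 to 0.12, -0.05 to 0.11, -0.03 to 0.15 and -0.11 to 0.11 in that order of groups. Leydig markers varied most, from -0.06 to 0.53 and 0.04 to 0.31 in exposed and control Xpc-/- mice, and from 0.16 to 0.41 and -0.71 to 0.89 in exposed and control Wt mice. The elongating spermatid average was 0.24 and 0.17 in Xpc-/- controls 1 and 2, against -0.06 to -0.01 in the other Xpc-/- controls. The Sertoli cell average was -0.16 and -0.23 in these arrays, against 0.01, -0.03 and 0.02 in the others. The part of these lists in the members' results was not tested.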

How the data were processed

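Testis RNA of 20 mice, labelled with Cy5, was hybridized on 2-colour Agilent 22K mouse arrays beside a Cy3 reference pooled from 3 unexposed Wt mice. The deposited values are natural log signals: per the study's methods the authors quantile normalized all scans, corrected the spots for the reference signal and took the mean over replicate spots. The signal level is kept, so values are not plain ratios to the reference, and detection flags were not used here. Values were divided by the natural log of 2.

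Groups came from the sample labels. The 4 group means were fitted to all 20868 probes with limma 3.58.1 in R 4.3.3 (7 contrasts, moderated test, no covariate), with Benjamini-Hochberg adjustment over all probes and a threshold of 0.05. The isoform pairs were compared by an exact permutation test (SciPy 1.17.1, numpy 2.4.6), a test added after the first fits. The scripts were tested on simulated data. Each mouse was 1 sample. Gene names came from the probe annotation, which left 2565 probes without a symbol, and all 59 member symbols were also in the RefSeq gene table.

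Named with values were members called in any contrast, the germ cell isoforms with their partners, the complex II subunits and, per complex, the members with the largest rise and fall; others named were chosen after their values were seen. The members and lists were chosen with earlier results of these data known. Alternatives covered an ordinary two-way analysis of variance, an intensity trend, a filter on the dimmest 25% of probes, repeated quantile or median scaling, the mean over probes, updated symbols, only the groups compared, a block on replicate number and leaving out arrays.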

Additional observations from a re-analysis of the deposited data

Results flagged for a closer look

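Single mice stood apart from the rest of their group in 3 of 76 groups of 5 values examined over the 19 named genes, where chance flags about 1 in 20 groups. Atp5j2 in Xpc-/- control 1 was 12.2, against 12.46 to 12.51 in the other 4 mice of that group. Cox6b2 in Xpc-/- B[a]P mouse 5 was 11.89, against 11.42 to 11.52 in the others. Cox8a in Xpc-/- control 2 was 10.12, against 10.62 to 10.76 in the others.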

How the results depend on the processing

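The calls of Atp5b, Atp5j2, Atp5l, Cox6a1 and Sdhd for the B[a]P main effect kept their direction and side of the threshold in all 8 alternatives and in all 20 fits that left out 1 mouse. Leaving out 1 mouse gave 3 to 4 members called higher and 2 to 7 lower, the 7 without Xpc-/- control 2. Without Xpc-/- controls 1 and 2 together, 8 were called lower. Atp5h (-0.23) was lost with the intensity trend (adjusted p = 0.0637) and without any 1 of Wt B[a]P 1 to 3, Wt control 1 to 5, Xpc-/- B[a]P 1 to 3 or Xpc-/- control 3 to 5 (adjusted p = 0.0506 to 0.0855). Cox17 (0.30) was lost with the trend (adjusted p = 0.0528), the analysis of variance (0.0692), the mean over probes (0.345), without both those controls (0.101), and without any 1 of Wt B[a]P 3 or 5, Wt control 1, 4 or 5, Xpc-/- B[a]P 1, 3 or 4, or Xpc-/- control 1 or 2 (0.0514 to 0.0849). Uqcrc1 (-0.28, adjusted p = 0.0199) and Atp5d (-0.27, adjusted p = 0.0484) were gained without Xpc-/- control 2. The causes were not tested.

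The count of 1 member called within Wt mice became 0 with the trend, 0 after repeated quantile normalization, 4 with only the groups compared and 4 without Xpc-/- controls 1 and 2 (Atp5j2, Atp5l, Cox6a1 and Sdhd both times), and 0 to 2 when 1 mouse was left out. It became 0 without any 1 of Wt B[a]P 1, 2, 3 or 5, Wt control 1, 2, 4 or 5, Xpc-/- B[a]P 3 or Xpc-/- control 4 or 5. It became 2 without Wt B[a]P 4 or Xpc-/- control 1 or 2. With the analysis of variance the member called within Wt mice was Sdhd in place of Atp5j2, and within Xpc-/- mice without controls 1 and 2 it was Atp5b. The count of 1 within Xpc-/- mice became 0 with the trend, the analysis of variance, repeated quantile normalization or only the groups compared, and 0 to 2 when 1 mouse was left out. It was 1 without Wt B[a]P 3, Wt B[a]P 4 or Xpc-/- B[a]P 5, 2 without Xpc-/- control 2 or 3, and 0 without any other mouse. Interaction and genotype counts were 0 in every fit. Small estimates that changed sign were these: Cox7b2 from -0.02 to 0.02 without both controls and to between 0.00 and 0.01 without Wt B[a]P 2, Xpc-/- B[a]P 3, Xpc-/- B[a]P 5 or Xpc-/- control 1 (fits without 1 mouse -0.08 to 0.01), and Sdha from 0.03 to 0.00 without Xpc-/- B[a]P 3 (fits without 1 mouse 0.00 to 0.07). The Cox6b2 minus Cox6b1 response was 0.23 to 0.32 when 1 mouse was left out. Over all probes, 744 were called higher and 442 lower, against 1174 and 1227 without both controls.

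Replicate numbers did not pair the mice: deviations of same-numbered mice correlated at -0.227 to 0.323 over 30 pairs, and 5 of 20 mice correlated best with their own number. With the replicate number as a block, the count within Xpc-/- mice was 0, the member called within Wt mice was Atp5l in place of Atp5j2, and no other member call changed.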
